A study of Spodoptera frugiperda with 6 samples.

Results

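The miRNAs that carry the names of Hox-cluster miRNAs were described here in larvae of the fall armyworm, Spodoptera frugiperda. Whether each of them lies in a Hox cluster of this species was not analysed here. The members were taken by name from a table of mature miRNAs. Every entry called miR-10, miR-993, miR-iab-4 or miR-iab-8 by its miRBase name was taken, whatever its species prefix, letter or arm. This gave 6 of the 172 entries and, with identical copies taken once, 4 of the 128 distinct mature sequences. One sequence was miR-10, 2 were miR-993 and 1 was miR-iab-4, and no entry was named miR-iab-8. Small RNA had been sequenced from whole larvae aged 3 to 5 days of an insecticide-resistant and of a susceptible strain. Each strain gave 3 libraries, and each library came from a pool of 100 larvae. The resistant strain came from a research laboratory and the susceptible strain from a commercial colony, so strain and colony origin cannot be told apart. Both were kept on artificial diet, and each group stands for 1 strain. The libraries are grouped by their strain labels. The miRNAs that the study lists as changed run in the opposite direction when the libraries are compared by these labels. Which strain a label stands for could not be settled here, so resistant and susceptible below name the label only, and each direction between the strains may be the reverse.

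Hox genes give the segments of an animal their identity along the body, and in insects they are carried together in clusters. The clusters also hold miRNA genes, which are small RNAs that lower the output of target mRNAs, mainly by pairing through bases 2 to 8, the seed. In Drosophila, miR-10 lies in the Antennapedia complex and can target the Hox gene Sex combs reduced. The iab-4 locus of the bithorax complex gives miR-iab-4 from a strand and miR-iab-8 from the opposite strand, and both repress Ultrabithorax. miR-993 is an arthropod relative of miR-10.

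The mature sequences are shown first, because the members are told apart by their seeds and by a few bases. They are given 5′ to 3′ as in the study's sequence list, with the seed in capitals. The 2 sequences of miR-993 share the name bmo-miR-993a-5p and are called by their table identifiers, Spodoptera_mature_110 and Spodoptera_mature_118.
pxy-miR-10-5p: uACCCUGUagauccgaauuugu
bmo-miR-993a-5p, Spodoptera_mature_110: gAAGCUCGuuucuacagguagc
bmo-miR-993a-5p, Spodoptera_mature_118: gAAGCUCGucucuacagguaucu
bmo-miR-iab-4-5p: aCGUAUACugaauguauccuga

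Both miR-993 sequences carried the seed AAGCUCG, and no other of the 128 distinct sequences carried it. The seeds of pxy-miR-10-5p and bmo-miR-iab-4-5p were each found in a single distinct sequence. Counted from the 5′ end of Spodoptera_mature_110, Spodoptera_mature_118 differed by U10C and G21U and was 1 base longer. The seed was the same in both, so the differing bases lie outside it.

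The miR-993 hairpins held a miR-10 sequence on their other arm. The whole precursors are shown with the counted mature sequence in capitals, because the lower-case 5′ arm carries the resemblance.
pxy-miR-10-5p precursor: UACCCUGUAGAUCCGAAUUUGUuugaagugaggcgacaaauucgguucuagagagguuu
Spodoptera_mature_110 precursor: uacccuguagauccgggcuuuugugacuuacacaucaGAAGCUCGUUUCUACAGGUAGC
Spodoptera_mature_118 precursor: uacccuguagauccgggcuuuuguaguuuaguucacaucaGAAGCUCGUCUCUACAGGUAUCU
The first 23 bases of both miR-993 precursors were identical and matched pxy-miR-10-5p over its first 15 bases. Of the 22 bases compared, 18 were the same, with differences A16G, A17G, U18C and G21U counted from the 5′ end of pxy-miR-10-5p. The table counts 1 mature sequence per precursor, so the level of this miR-10-like arm was not analysed here. The counted miR-993 sequences began at base 38 of the first precursor and base 41 of the second, on the 3′ arm, although their miRBase name ends in 5p.

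On the genome assembly ZJU_Sfru_1.0, 4 of the 6 entries lay on 1 chromosome. The precursor of Spodoptera_mature_118 was at NC_049722.1:5080980-5081042 on the plus strand. The precursor of pxy-miR-10-5p was at NC_049722.1:5146514-5146572 on the minus strand, 65471 bases further on. The precursor of bmo-miR-iab-4-5p was at NC_049722.1:5871929-5871990 on the plus strand, after a further gap of 725356 bases. Together they spanned 791011 bases.

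No other precursor of the table lay inside this stretch, and the nearest of the 5 others on the chromosome was 3693921 bases away. The order was therefore miR-993, miR-10 and miR-iab-4, with miR-10 on the opposite strand to the others. Gene models of this assembly were not used here, so which protein-coding genes surround the precursors, Hox genes included, was not analysed here.

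**Figure D1:**
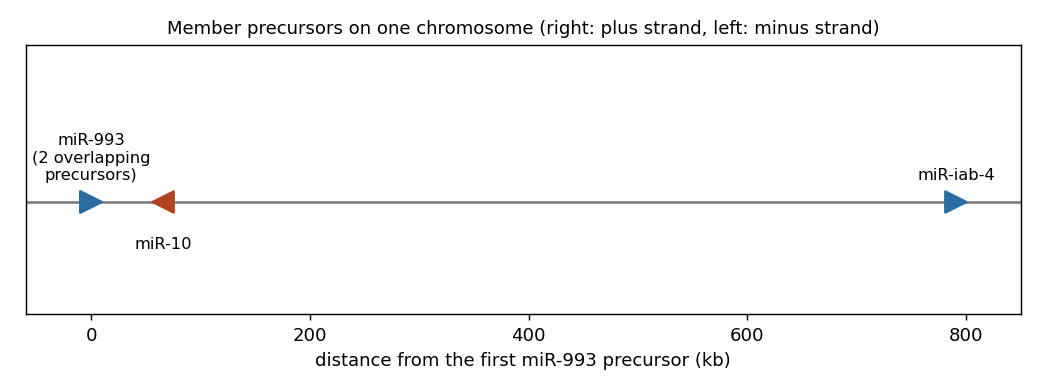
Positions of the member precursors along 1 chromosome, as distance in kb from the first miR-993 precursor, with arrowheads pointing right for the plus strand and left for the minus strand. miR-993 and miR-10 lie 65.5 kb apart, and miR-iab-4 lies 791 kb from the first miR-993 precursor.

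A second entry at the miR-993 locus, bmo-miR-993a-3p or Spodoptera_mature_170, held the same 23 bases as Spodoptera_mature_118. Its precursor was at NC_049722.1:5081020-5081085 and overlapped the other precursor by 23 bases. Both mature sequences occupy positions 5081020 to 5081042, so a single locus was listed under 2 names with the same counts. It was counted once below.

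Spodoptera_mature_110 lay on another chromosome, at NC_049711.1:19121742-19121800 on the minus strand. An identical precursor, Spodoptera_mature_111, was listed at NC_049711.1:18063093-18063151 on the plus strand, 1058590 bases away. The stretch between them held 2 precursors of bmo-miR-9a-5p. Both copies carried the same counts, so the levels below belong to the sequence and cannot be divided between the copies.

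The iab-4 hairpin was examined on both strands, because miR-iab-8 is read from the strand opposite to miR-iab-4 in Drosophila. The precursor is shown with its mature sequence in capitals, and its opposite strand with the run it shares with that mature sequence in capitals.
bmo-miR-iab-4-5p precursor: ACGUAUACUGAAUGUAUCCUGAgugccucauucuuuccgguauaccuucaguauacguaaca
opposite strand: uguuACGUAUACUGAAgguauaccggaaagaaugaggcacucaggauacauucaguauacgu
The shared run was 12 bases, from base 1 to base 12 of the mature sequence, and so contained its seed. No mature sequence of the table lay on that opposite strand. A level of miR-iab-8 was therefore not analysed here.

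The levels covered more than 3 orders of magnitude and had the same order in all 6 libraries. pxy-miR-10-5p was the most abundant of the 128 distinct sequences. Spodoptera_mature_110 ranked 44, Spodoptera_mature_118 ranked 47 and bmo-miR-iab-4-5p ranked 75. The unit of level is CPM: the counts of a sequence for every 1000000 counts of its library, after TMM scaling (edgeR's trimmed mean of M-values). The mature sequences were 22 or 23 nt long, so CPM was not divided by length. Libraries held 540739 to 1288083 counts, and 166 to 171 of the 172 entries were detected in each. bmo-miR-133, a miRNA of muscle, had 1759 to 2901 CPM, and bmo-miR-124, a miRNA of the nervous system, had 34.7 to 62.3 CPM. Both tissue markers were thus present in every library of whole larvae. In pools of whole larvae, fewer cells of a type and less RNA per cell cannot be told apart.

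pxy-miR-10-5p had 166169, 79560 and 53373 counts in replicates 1, 2 and 3 of the libraries labelled resistant, and 119865, 168922 and 101389 counts in those labelled susceptible. As CPM these were 131274, 141546 and 92706 in the resistant libraries and 129925, 142211 and 110909 in the susceptible libraries. Replicate 3 was the lowest library of each strain and replicate 2 the highest, and the strains overlapped. The means were 121842 ± 25750.0 CPM (SD, n = 3) in the resistant and 127682 ± 15771 CPM (SD, n = 3) in the susceptible libraries.

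A single sequence, pxy-miR-10-5p, held 9.87% to 14.4% of all counts of a library, copies included. The mean share was 12.2% ± 2.09 in the resistant and 12.7% ± 1.56 in the susceptible libraries (SD, n = 3 each). The shares did not differ beyond their spread (exact permutation test, two-sided p = 0.9; 3 libraries against 3 cannot go below 0.1). With each distinct sequence once in the total, pxy-miR-10-5p held 13.7% to 19.4% of the counts of a library. All 4 members together, each sequence once over the total with copies, held 12.3% ± 2.09 and 12.7% ± 1.56 (SD, n = 3 each; exact permutation test, two-sided p = 0.9). pxy-miR-10-5p made up 99.1% to 99.3% of the counts of the members in every library, so the second comparison repeats the first.

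Spodoptera_mature_110, the more abundant miR-993 sequence, had 618, 307 and 287 counts in the libraries labelled resistant and 446, 589 and 425 counts in those labelled susceptible. The levels were 488, 546 and 499 CPM in the resistant and 483, 496 and 465 CPM in the susceptible libraries. All 6 libraries lay within a 1.17-fold range and the strains overlapped. The means were 511 ± 30.9 and 481 ± 15.6 CPM (SD, n = 3 each). For each count of this sequence, a library held 186 to 287 counts of pxy-miR-10-5p.

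Spodoptera_mature_118, the miR-993 sequence on the chromosome of miR-10, had 403, 192 and 185 counts in the libraries labelled resistant and 375, 453 and 336 counts in those labelled susceptible. The levels were 318, 342 and 321 CPM in the resistant and 406, 381 and 368 CPM in the susceptible libraries. The highest resistant library lay below the lowest susceptible library. The means were 327 ± 12.6 and 385 ± 19.7 CPM (SD, n = 3 each). The strains were also separate in this order in the authors' RPM, at 206 to 222 against 250 to 258, and in their normalized values. Both come from the same counts and are no added support. Of all sequences tested, 50.0% did not overlap in CPM.

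bmo-miR-iab-4-5p, the least abundant member, had 70, 33 and 36 counts in the libraries labelled resistant and 45, 67 and 44 counts in those labelled susceptible. The levels were 55.3, 58.7 and 62.5 CPM in the resistant and 48.8, 56.4 and 48.1 CPM in the susceptible libraries. The susceptible replicate 2 library lay among the resistant libraries, so the strains overlapped. With so few counts, exact 95% Clopper-Pearson intervals were wide, from 43.1 to 69.9 CPM in resistant replicate 1 and from 40.4 to 82.5 CPM in resistant replicate 2. Such intervals cover the counting error of reads only, and the study describes no use of molecular identifiers. The means were 58.8 ± 3.62 and 51.1 ± 4.60 CPM (SD, n = 3 each). A library held 1483 to 2664 counts of pxy-miR-10-5p for each count of bmo-miR-iab-4-5p.

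**Figure D2:**
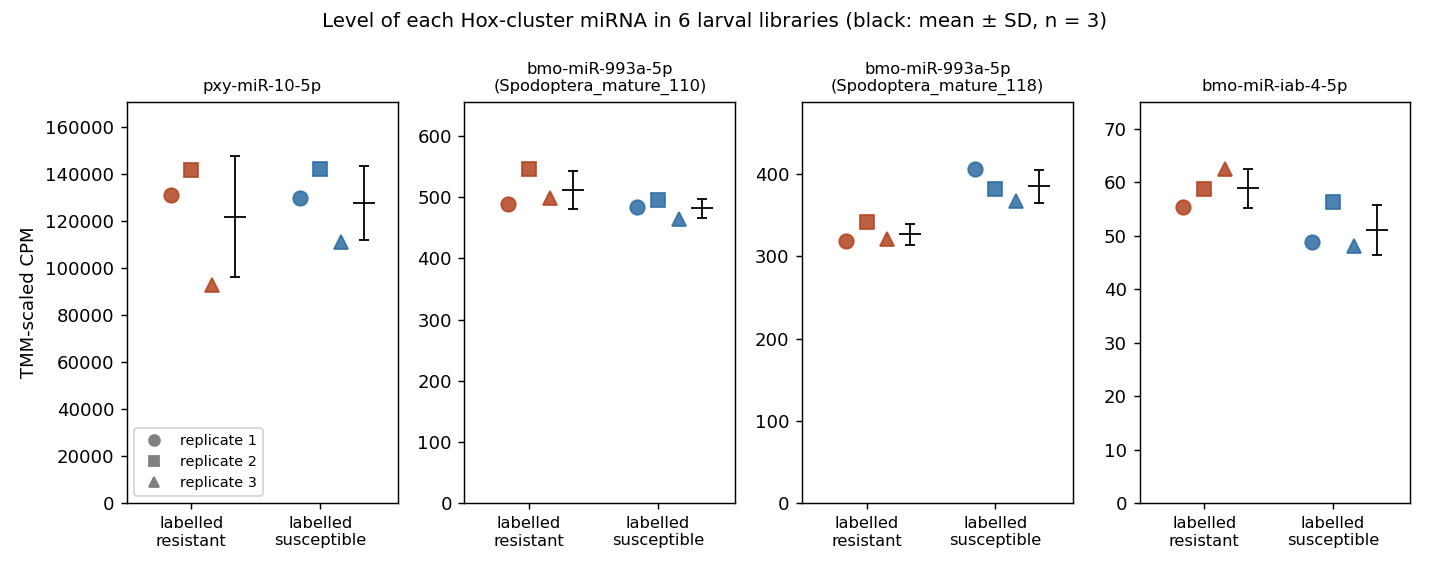
TMM-scaled CPM of the 4 member sequences in each larval library, on linear axes from 0 with a scale of their own, by strain label and replicate, with the mean and SD of 3 libraries in black. Spodoptera_mature_118 is the member whose strains do not overlap, at 318 to 342 CPM against 368 to 406 CPM, as is true of 50.0% of the sequences tested.

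In the order of levels over the whole table, pxy-miR-10-5p stood above bmo-miR-31-5p (97220 ± 6221 CPM, SD over 6 libraries) in 6 of 6 libraries. Spodoptera_mature_110 (496 ± 27.2 CPM, SD over 6 libraries) stood between Spodoptera_mature_56 (526 ± 174 CPM) and sfr-miR-2b-5p (439 ± 50.1 CPM). It was higher in 2 of 6 libraries against the former and in 5 of 6 against the latter, so neither neighbour was separate from it beyond the spread. Spodoptera_mature_118 (356 ± 35.1 CPM) was below sfr-miR-10483-5p (433 ± 92.1 CPM) in 6 of 6 libraries and above Spodoptera_mature_06 (319 ± 43.4 CPM) in 5 of 6. bmo-miR-iab-4-5p (55.0 ± 5.63 CPM) was below Spodoptera_mature_13 (68.5 ± 17.6 CPM) in 6 of 6 libraries and above bmo-miR-124 (53.1 ± 10.4 CPM) in 2 of 6.

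No member passed the test between the strains. With edgeR's quasi-likelihood test and Benjamini-Hochberg adjustment over the 152 entries that passed its filter on low counts, all 4 members were tested and 0 of 4 had an adjusted p under 0.05. Among all distinct sequences tested, 40 of 112, or 35.7%, were called, 24 higher and 16 lower in the libraries labelled resistant. At an unadjusted p under 0.05 the count of members was also 0 of 4. Every called sequence passes that threshold too, so the share over all sequences is at least 35.7%. DESeq2 called 26 distinct sequences, 0 of them members. A count of 0 of 4 against these backgrounds is no result about the members. The median log2 fold change, resistant over susceptible, was 0.01 over the members and 0.03 over all sequences tested. The median absolute log2 fold change over all sequences tested was 0.34, and that of every member was smaller.

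The log2 fold change of pxy-miR-10-5p was -0.07 (SE 0.15, 95% interval -0.41 to 0.27, edgeR adjusted p = 0.759). Its direction rested on single libraries, being 0.10 without resistant replicate 3 and 0.06 without susceptible replicate 2. Upper-quartile factors gave -0.25 (edgeR adjusted p = 0.175) and mapped reads as library sizes -0.79 (adjusted p = 0.124). Its adjusted p ran from 0.124 to 0.836 over all alternatives. As a share of mapped reads, pxy-miR-10-5p had 0.582% ± 0.224 in the resistant and 1.004% ± 0.168 in the susceptible libraries (SD, n = 3 each; exact permutation test, two-sided p = 0.2). Spodoptera_mature_110 had a log2 fold change of 0.08 (SE 0.12, 95% interval -0.19 to 0.36, edgeR adjusted p = 0.617). The log2 fold change of bmo-miR-iab-4-5p was 0.19 (SE 0.18, 95% interval -0.22 to 0.59, edgeR adjusted p = 0.455). Other scalings moved the members by about as much as all sequences. With upper-quartile factors the members moved by -0.18 to -0.17 and the median sequence by -0.17, and with mapped reads as library sizes by -0.72 to -0.68 and -0.70. The sign of Spodoptera_mature_110 turned in 4 of 15 alternatives, each with another scaling or filter. That of bmo-miR-iab-4-5p turned in 1 of 15, with mapped reads as library sizes. The edgeR intervals reach 1.21-fold for pxy-miR-10-5p, 1.28-fold for Spodoptera_mature_110 and 1.51-fold for bmo-miR-iab-4-5p on the higher side. On the lower side they reach 0.755-fold, 0.878-fold and 0.857-fold in the same order. Larger rises or falls in the libraries labelled resistant lie outside these intervals under TMM scaling.

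Spodoptera_mature_118 had the largest absolute log2 fold change of the members, at -0.24 (SE 0.13, 95% interval -0.52 to 0.05, edgeR adjusted p = 0.180). Among the sequences tested, 43 of 112 had a smaller absolute value. It was 1 of 4 members whose strains did not overlap in CPM, while 56 of 112 sequences tested, 50.0%, did not overlap. A count of 1 of 4 against that background is no result about the members. The call depended on the setting. edgeR gave an adjusted p of 0.0279 with upper-quartile factors, 0.0472 with no filter and 0.0393 with mapped reads as library sizes. With a minimum of 10 counts in every library, the edgeR adjusted p was 0.0515. That filter moved the median of all sequences by -0.11, and no filter moved it by -0.10. Over all alternatives the adjusted p of Spodoptera_mature_118 ran from 0.0279 to 0.349, with log2 fold changes from -0.94 to -0.20. When both miR-993 sequences were summed, the log2 fold change was -0.03 (edgeR adjusted p = 0.860).

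**Figure D3:**
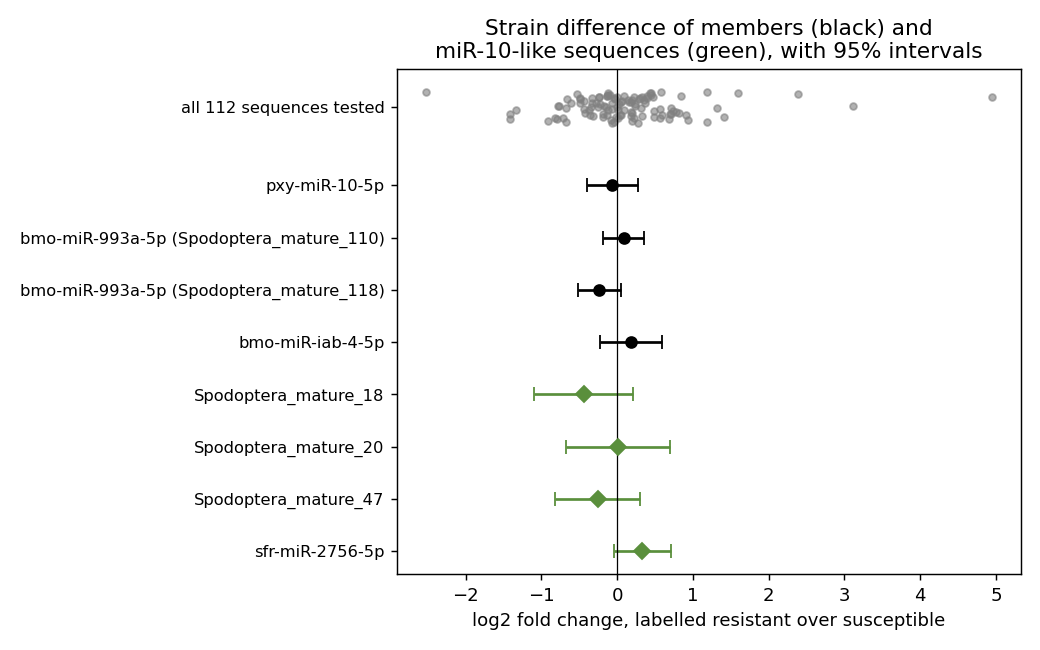
log2 fold change between the libraries labelled resistant and susceptible, with the 4 members in black, the miR-10-like sequences in green and bars for 95% intervals. The grey points are all 112 sequences tested, jittered vertically, and the members lie between -0.24 and 0.19.

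The ratio of the miR-993 sequences to each other did not overlap between the strains. Spodoptera_mature_118 alone did not overlap either, as was true of 50.0% of the sequences tested. How often ratios of other pairs stay apart was not examined, so the separation is no result about the members. As a ratio within a library, the miR-993 ratio does not depend on the scaling of the library. Spodoptera_mature_118 had 0.652, 0.625 and 0.645 counts per count of Spodoptera_mature_110 in the libraries labelled resistant, and 0.841, 0.769 and 0.791 in those labelled susceptible. The ratio was lower in each resistant library than in each susceptible library. On the log2 scale the mean was -0.64 ± 0.03 in the resistant and -0.32 ± 0.07 in the susceptible libraries (SD, n = 3 each), a difference of -0.32. The exact permutation test gave a two-sided p of 0.1, the smallest that 3 libraries against 3 allow, so the design cannot pass a threshold of 0.05. Leaving out each library in turn gave differences from -0.35 to -0.28.

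Counting error left wide intervals in single libraries. Spodoptera_mature_118 held 39.5% of the counts of the pair in resistant replicate 1 (exact 95% interval 36.5 to 42.5), 38.5% in replicate 2 (34.2 to 42.9) and 39.2% in replicate 3 (34.8 to 43.8). The share in susceptible replicate 1 was 45.7% (42.2 to 49.2), in replicate 2 it was 43.5% (40.4 to 46.5) and in replicate 3 it was 44.2% (40.6 to 47.8). In 0 of the 9 pairs of a resistant and a susceptible library were the intervals apart. Overlap of such intervals is not a test of the difference, and whether counting error covers it was not tested. The sequences differ at few bases, and how the authors' counting divided reads between them was not tested.

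**Figure D4:**
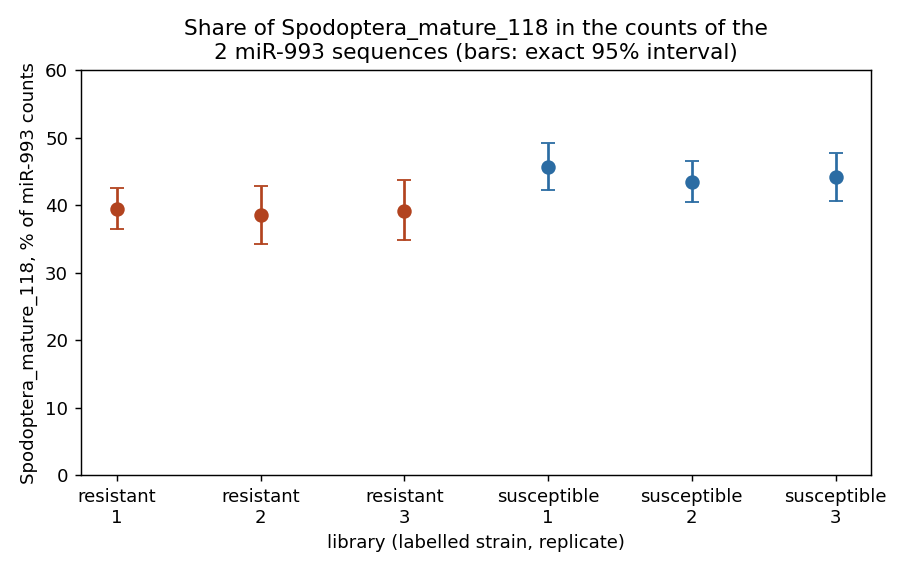
Share of Spodoptera_mature_118 in the summed counts of both miR-993 sequences, in percent, for each library, with exact 95% Clopper-Pearson intervals as bars. The 3 resistant libraries lie between 38.5% and 39.5% and the 3 susceptible libraries between 43.5% and 45.7%, and the intervals of the strains overlap.

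The spread over the 6 libraries of both strains differed among the members and did not follow their level. pxy-miR-10-5p varied 1.53-fold between its lowest and highest library, with a coefficient of variation of 15.5% where counting alone would give 0.310%. Its SD of log2 CPM was 0.24, larger than that of each of the 5 sequences next below it in level, whose median was 0.16. Under TMM scaling the most abundant member was therefore the most variable of the 4. With totals only, its SD was 0.20 and that of bmo-miR-iab-4-5p was 0.19. The TMM-scaled SD of pxy-miR-10-5p was still below the median of the 112 sequences tested, which was 0.31, and 40 of them had a smaller SD. A library with a low share of pxy-miR-10-5p was found under both labels.

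The miR-993 sequences were among the steadiest of the table over the libraries of both strains. This spread includes any difference between the strains, and 40 of the 112 sequences tested were called between them. Spodoptera_mature_110 had a coefficient of variation of 5.49%, where counting alone would give 4.99%, and an SD of log2 CPM of 0.08. That SD was the second smallest of the 112 sequences tested, whose median was 0.31, and was smaller than that of all 10 sequences nearest to it in level. Spodoptera_mature_118 had a coefficient of variation of 9.85% against 5.82% from counting, and its SD of 0.14 was smaller than that of 9 of its 10 neighbours in level. The exception was Spodoptera_mature_110. Within a strain, the coefficient of variation of Spodoptera_mature_118 was 3.86% in the resistant libraries, where counting alone would give 6.65%, and 5.12% in the susceptible libraries, where counting would give 5.11%.

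bmo-miR-iab-4-5p had a coefficient of variation of 10.2%, smaller than the 15.03% that its few counts would give by counting alone. Under TMM scaling its SD of log2 CPM was 0.14, smaller than that of all 10 sequences nearest in level, whose median was 0.36. With totals only its SD was 0.19, and whether it stayed below all 10 neighbours at that scaling was not examined. A difference between libraries smaller than the counting error could not be detected at this depth.

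**Figure D5:**
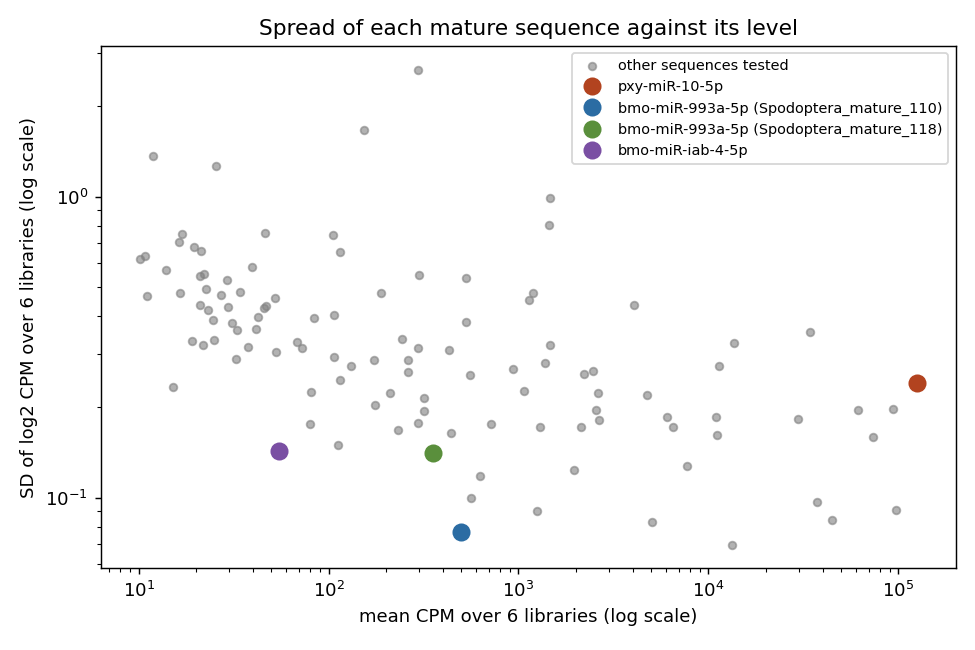
SD of log2 CPM over the 6 libraries against mean CPM, both on log axes, for the 112 distinct sequences tested, with the 4 members in colour. Spodoptera_mature_110, Spodoptera_mature_118 and bmo-miR-iab-4-5p lie near the lower edge for their level, at 0.08 to 0.14, and pxy-miR-10-5p lies at 0.24.

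The sequences whose pattern over the 6 libraries was most like that of each member were ranked by the root mean square difference of log2 CPM, each sequence centred on its own mean. For pxy-miR-10-5p these were bmo-miR-124 (0.08) and sfr-miR-10504-5p (0.10), where the median over all sequences tested was 0.34. For Spodoptera_mature_110 they were sfr-miR-2c-5p and bmo-miR-279a (0.05 each, median 0.29). For Spodoptera_mature_118 they were sfr-miR-10482-5p (0.05) and bmo-miR-31-5p (0.07, median 0.30). For bmo-miR-iab-4-5p they were Spodoptera_mature_110 (0.10) and sfr-miR-2c-5p (0.10, median 0.29). The libraries share depth and scaling across these sequences, and a sequence with little spread is close to any other with little spread.

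Apart from the members, 4 distinct sequences held bases 2 to 8 of pxy-miR-10-5p at their own start, and they are shown because none carries a miR-10 name. The shared bases are in capitals.
Spodoptera_mature_18: ACCCUGUagauccgaacuuuau
Spodoptera_mature_20: ACCCUGUagauccgaacuuuaa
Spodoptera_mature_47: ACCCUGUagaaccgagacuuuau
sfr-miR-2756-5p: ACCCUGUagcugcuaaggggcg
Each began 1 base later than pxy-miR-10-5p, so its own seed, bases 2 to 8, was CCCUGUA and not that of pxy-miR-10-5p. Spodoptera_mature_18 and Spodoptera_mature_20 matched pxy-miR-10-5p from its base 2 at 18 of 21 bases, Spodoptera_mature_47 at 16 and sfr-miR-2756-5p at 14. The resemblance of sfr-miR-2756-5p thus ended soon after the seed. The precursors of the first 3, with a copy of Spodoptera_mature_20, lay within 21.02 kb on a chromosome without a member, from 21582062 to 21603085 of NC_049710.1.

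The other arm of the Spodoptera_mature_47 hairpin resembled miR-993, which is why the hairpin is shown, with its counted mature sequence in capitals.
Spodoptera_mature_47 precursor: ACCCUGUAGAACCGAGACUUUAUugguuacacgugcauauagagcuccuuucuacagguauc
Of the 22 bases of Spodoptera_mature_110, 18 were the same on that arm, with the differences G1A, A2G, G8C and G21U. Bases 2 and 8 lie in the seed, so the seed was not shared.

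The levels of these sequences were far below that of pxy-miR-10-5p. Spodoptera_mature_18 had 41.5 ± 14.9 and 52.3 ± 8.63 CPM (SD, n = 3 each), Spodoptera_mature_20 had 43.5 ± 11.03 and 41.0 ± 14.8, and Spodoptera_mature_47 had 29.7 ± 7.40 and 35.1 ± 6.07 in the libraries labelled resistant and susceptible. sfr-miR-2756-5p was higher, at 294 ± 55.0 and 232 ± 18.6 CPM (SD, n = 3 each). None of the 4 was called by edgeR, with adjusted p from 0.166 for sfr-miR-2756-5p to 0.981 for Spodoptera_mature_20, and their strains overlapped. Without resistant replicate 1, sfr-miR-2756-5p had an edgeR adjusted p of 0.0493, and Spodoptera_mature_18 had 0.0393 with mapped reads as library sizes. Over all alternatives the adjusted p ran from 0.0493 to 0.476 for the former and from 0.0393 to 0.870 for the latter.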

How the data were processed

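Members, lists and tests were chosen with earlier results of these data known. Adapters were removed by the authors with cutadapt 3.4 from 50-bp reads, and reads under 18 nt were dropped. The reads were mapped to ZJU_Sfru_1.0, and miRDeep2 assigned them to miRBase precursors of S. frugiperda, Plutella xylostella and Bombyx mori. Each deposited entry has raw counts, RPM and a normalized signal, all made by the authors. Tests rest on the counts, and the other units served as alternatives. Mature sequences, other arms and precursors came from the study's supplementary list, whose coordinates equalled those of the table for 172 of 172 entries. Coordinates are 1-based.

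Counts of all entries were tested with edgeR 4.0.16 in R 4.3.3 (TMM, filterByExpr and the quasi-likelihood test, with no term but strain), adjusted by Benjamini-Hochberg, with calls at an adjusted p under 0.05. log2 CPM used a prior count of 2. Fold-change intervals are at 95%, with the SE derived from the edgeR log2 fold change and its F statistic. Single values were compared by exact permutation of 3 against 3 libraries. Replicates are pools of larvae, so p-values measure the spread between pools. Named miRNAs were the members, sequences holding bases 2 to 8 of pxy-miR-10-5p from base 1 or 2, those next in mean CPM, and the 2 nearest patterns. The edgeR procedure was tested on simulated data. Alternatives were DESeq2 1.42.0, other scalings, filters and totals, copies counted once, miR-993 summed, pxy-miR-10-5p removed, a replicate block and leaving out each library.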

Additional observations from a re-analysis of the deposited data

How the results depend on the processing

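Of 112 distinct sequences tested, 40 were called (24 higher and 16 lower in the libraries labelled resistant). DESeq2 called 26 (15 and 11), and a minimum of 10 counts in every library 26 (10 and 16). The split was 11 and 22 with upper-quartile factors, 3 and 29 with mapped reads as library sizes, 14 and 22 with no filter, and 26 and 11 with each distinct sequence once. Leaving out each library gave 19 (without susceptible replicate 2) to 29 calls, with 24 without susceptible replicate 1. These scalings moved the median log2 fold change of all sequences by -0.17 (upper-quartile), -0.70 (mapped reads), -0.10 (no filter) and -0.11 (minimum of 10 counts).

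The difference in the share of pxy-miR-10-5p was -0.43 percentage points, and -1.27 to 0.74 when leaving out each library, being 0.74 without resistant replicate 3 and 0.44 without susceptible replicate 2. For all members the range was -1.27 to 0.74, with 0.44 without susceptible replicate 2. Without these libraries the log2 fold change of pxy-miR-10-5p was 0.10 and 0.06. That of Spodoptera_mature_110 became -0.093 with upper-quartile factors, -0.63 with mapped reads, -0.022 with no filter and -0.028 with a minimum of 10 counts. With mapped reads, bmo-miR-iab-4-5p was at -0.49, Spodoptera_mature_20 at -0.62 and sfr-miR-2756-5p at -0.41. Spodoptera_mature_20 was also at -0.15 with upper-quartile factors, -0.080 with no filter, -0.083 with a minimum of 10 counts and -0.026 with pxy-miR-10-5p removed. Leaving out libraries moved it between -0.22 and 0.36, with -0.19 without resistant replicate 3. The turns with another scaling or filter came with the shift of all sequences given above, or of -0.038 with pxy-miR-10-5p removed. The cause of any turn, also of those on leaving out a library, was not tested. The log2 ratio of the miR-993 sequences kept its direction under every alternative run, and the SD of log2 CPM moved most for bmo-miR-iab-4-5p, from 0.14 to 0.19 with totals only.

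Replicate numbers were not taken to pair the libraries, since deviations of same-numbered libraries correlated at 0.04, 0.29 and 0.27 and not all exceeded 0.1. Resistant replicates 2 and 3 each correlated best with their own number, and resistant replicate 1 about equally with susceptible replicates 1 and 3 (0.04 each). With the numbers as a replicate block, 38 sequences were called (23 and 15), 0 of them members. Counts of 33 to 70 limit what can be said of bmo-miR-iab-4-5p.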
